A study of Arabidopsis thaliana with 15 samples.

Results

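A set of 46 genes of Arabidopsis thaliana were all but silent in callus made at 27 °C and expressed in callus made at 17 °C. They were chosen by 3 conditions on CPM (the reads of a gene scaled to a library of 1000000 counted reads), averaged over the 3 libraries of a group. The mean on callus-inducing medium (CIM) was at most 1 CPM at 27 °C and at least 10 CPM at 17 °C, and the mean on shoot-inducing medium (SIM) was not higher at 27 °C than at 17 °C. Of the 33602 genes in the table, 16197 had at least 10 CPM after CIM at 17 °C, 53 met both conditions on CIM, and 46 met all 3. The mirrored pattern on CIM, at least 10 CPM at 27 °C and at most 1 CPM at 17 °C, was met by 3 genes.

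All samples were Col-0 wild type, and RNA was sequenced from hypocotyls, the seedling stem below the cotyledons. Seedlings grew in the dark at 22 °C for 7 days, and segments were cut about 3 mm above the root and 5 mm below the shoot, with about 100 explants pooled in each sample. There were 15 samples, 3 in each of 5 groups, taken at 0 h (22 °C), after 4 days on CIM at 27 °C or at 17 °C, and after 4 further days on SIM at 27 °C or at 17 °C, both media in continuous light. The labels give each SIM sample 1 temperature and do not state that of its CIM step separately, so that the same temperature on both media is implied only. CIM held 0.5 mg/L of 2,4-D, a synthetic auxin, and 0.1 mg/L of kinetin, a cytokinin. SIM held 0.5 mg/L of the cytokinin 2-iP and 0.15 mg/L of the auxin IAA. No label tells separate cultures from repeated libraries within a group, and p-values therefore reflect only how far these libraries spread, which can be technical. Markers that define a hypocotyl as an organ were not listed. Of the markers of its conducting tissues, all 11 xylem genes and all 6 phloem genes had counts in every group.

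Callus on auxin-rich medium is known to start from cells along the xylem and to follow a course like that of a young lateral root, so root genes are commonly expressed in it. Suberin is a polyester of fatty acids, glycerol and phenolics that seals the root endodermis and cork; CYP86A enzymes add a hydroxyl group to the end of the fatty acid, and GPAT acyltransferases join the acid to glycerol. In the root cap, polygalacturonases and other enzymes of pectin, the gel that glues plant walls together, let the outer cells come loose.

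Total counts ran from 3427707 to 4446863 per library, so that 10 CPM stood for 34.3 reads in the shallowest library. Libraries 1 and 3 of CIM at 27 °C, and libraries 1 and 3 of SIM at 17 °C, differed beyond counting noise at 0 genes, while the other pairs in these 2 groups differed at 5 to 10 genes. Each library's value is given for that reason, and tests were also run with each such pair counted as 1 sample. Library 3 of CIM at 17 °C stood apart for these genes. It was the highest of its group for 44 of the 46, with a median ratio of 1.42 to the mean of libraries 1 and 2, against 34.2% of genes and a median ratio of 0.998 among the 16197 genes with at least 10 CPM there. The 14 genes of a photosynthesis list were likewise all highest in that library, with summed levels of 165, 177 and 342 CPM in libraries 1, 2 and 3 of CIM at 17 °C. The same list summed to 130 to 157 CPM at 0 h, 195 to 226 CPM after CIM at 27 °C, 845 to 891 CPM after SIM at 27 °C and 555 to 583 CPM after SIM at 17 °C, and no gene of it was at 0 in any group. Its part in the results was not tested. Without library 3, 32 of the 46 genes met the conditions. At 0 h, a list of 11 seed maturation genes summed to 1101, 4.87 and 767 CPM in libraries 1, 2 and 3, against at most 3.32 CPM in any library of the other groups.

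After CIM at 27 °C every library lay below every 17 °C library for all 46 genes, where 22.6% of the 20704 genes tested did so. These 2 groups chose the genes, so nothing is read from that count. Summed over the 46 genes, the level was 22.0, 32.7 and 16.9 CPM in the CIM libraries at 27 °C, against 947, 894 and 1330 CPM in those at 17 °C. The genes differed in where else they were expressed. At 0 h, 21 had a mean of at most 1 CPM, 12 lay between 1 and 10 CPM and 13 had at least 10 CPM, so 25 of the 46 had a mean above 1 CPM before any culture. Among the 13, BGLU19 and AT3G21380 had 1.08 and 0 CPM in 0 h library 2, so their means rested on libraries 1 and 3. After SIM at 17 °C, 10 genes had at least 10 CPM, 27 lay between and 9 had at most 1 CPM. After SIM at 27 °C those numbers were 2, 14 and 30, and 14 genes had 0 counts in the whole group. In bulk tissue, fewer cells of a type and less RNA per cell cannot be told apart.

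**Figure D1:**
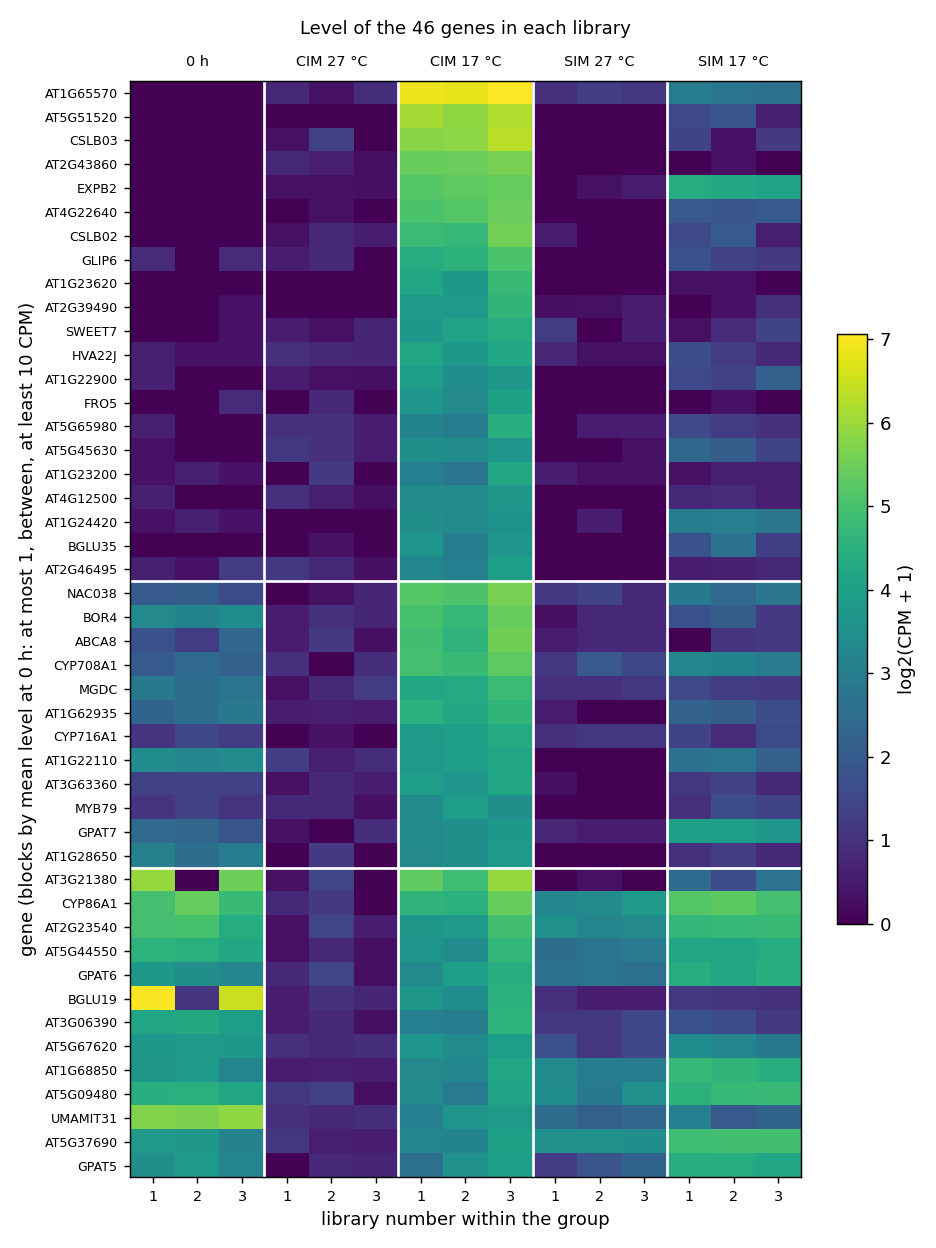
Level of each of the 46 genes (rows) in each of the 15 libraries (columns), as log2(CPM + 1), in 3 blocks by the mean at 0 h and sorted within a block by the mean after CIM at 17 °C. The CIM columns at 27 °C are dark throughout, the upper 21 rows are also dark at 0 h, and 8 of the 13 rows of the bottom block stay at 10 CPM or more after SIM at 17 °C.

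Enzymes of the suberin pathway were among these genes. GPAT5, GPAT7 and CYP86A1, out of a list of 18 suberin genes, met the conditions, and all 3 were present at 0 h, near absent after CIM at 27 °C, and after SIM at 17 °C at levels that overlapped or lay above those at 0 h. Their promoters, the 250 bases before the RefSeq gene start, are shown because these 3 link the set to a known pathway. They lie at chr3:3595444-3595693 on the plus strand (GPAT5), chr5:1834797-1835046 on the plus strand (GPAT7) and chr5:23768112-23768361 on the minus strand (CYP86A1) of RefSeq's TAIR10.1 assembly. Capitals mark ACGTG, the core of sites bound by abscisic acid response factors, on either strand, and ACCAACC, a site type of MYB factors.
GPAT5: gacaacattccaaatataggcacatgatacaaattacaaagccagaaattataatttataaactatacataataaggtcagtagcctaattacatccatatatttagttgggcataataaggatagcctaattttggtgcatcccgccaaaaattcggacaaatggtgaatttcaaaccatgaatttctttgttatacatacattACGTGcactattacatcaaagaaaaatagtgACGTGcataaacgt
GPAT7: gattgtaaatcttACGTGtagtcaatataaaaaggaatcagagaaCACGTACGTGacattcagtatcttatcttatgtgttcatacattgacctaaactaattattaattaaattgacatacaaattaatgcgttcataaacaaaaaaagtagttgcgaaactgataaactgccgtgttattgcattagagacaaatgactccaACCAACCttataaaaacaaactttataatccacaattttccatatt
CYP86A1: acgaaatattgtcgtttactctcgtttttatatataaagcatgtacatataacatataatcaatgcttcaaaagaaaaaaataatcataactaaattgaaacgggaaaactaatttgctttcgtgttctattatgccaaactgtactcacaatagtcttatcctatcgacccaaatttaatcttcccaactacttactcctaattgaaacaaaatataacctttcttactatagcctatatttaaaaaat

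GPAT7 (AT5G06090, chromosome 5, 1835106 to 1836722, plus strand, TAIR10) had 4.37, 4.05 and 2.67 CPM at 0 h. After CIM it had 0.239, 0 and 0.899 CPM at 27 °C, against 9.34, 10.5 and 12.7 CPM at 17 °C, and after SIM 0.695, 0.483 and 0.476 CPM at 27 °C, against 14.7, 14.4 and 12.1 CPM at 17 °C. The libraries of the 27 °C groups lay below those of every other group. GPAT7 fell after SIM at 27 °C relative to 0 h (log2 fold change -2.85 ± 0.47 SE, adjusted p = 1.92e-06, edgeR quasi-likelihood test with Benjamini-Hochberg adjustment over all genes, as in all tests below). It rose after SIM at 17 °C relative to 0 h (1.73 ± 0.24, adjusted p = 9.72e-08).

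GPAT5 (AT3G11430, chromosome 3, 3595765 to 3597952, plus strand), which makes the acyl glycerols of root and seed coat suberin, had 10.1, 13.2 and 8.28 CPM at 0 h. After CIM it had 0, 0.766 and 0.675 CPM at 27 °C, against 4.96, 10.8 and 14.9 CPM at 17 °C, where library 3 was 3 times library 1. After SIM it had 1.39, 2.66 and 3.81 CPM at 27 °C, against 20.2, 19.8 and 16.8 CPM at 17 °C. The SIM libraries at 17 °C lay above all others, and those at 27 °C lay below the 0 h libraries. The loss at 27 °C relative to 0 h was -2.19 ± 0.39 (adjusted p = 4.42e-05). The gain over 0 h at 17 °C was 0.69 ± 0.26 (log2, adjusted p = 0.0226), which did not pass with DESeq2 (adjusted p = 0.0503) or with 0 h library 2 as the only 0 h sample (log2 fold change 0.37, adjusted p = 0.375), a fit in which the lone sample is assumed to vary like the other groups. Leaving out 0 h library 1 or 3, or SIM library 1 or 2 at 17 °C, also ended that call.

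CYP86A1 (AT5G58860, chromosome 5, 23765814 to 23768049, minus strand), the fatty acid hydroxylase of root suberin, had 30.6, 40.5 and 25.9 CPM at 0 h. After CIM it had 0.716, 1.28 and 0 CPM at 27 °C, against 23.0, 21.8 and 41.4 CPM at 17 °C. After SIM it had 8.80, 9.42 and 12.9 CPM at 27 °C, against 34.6, 37.8 and 30.2 CPM at 17 °C. The 17 °C callus and the 0 h libraries overlapped, and the 27 °C groups lay below both. CYP86A1 fell after SIM at 27 °C relative to 0 h (log2 fold change -1.83 ± 0.33, adjusted p = 0.000321). At 17 °C its difference from 0 h was -0.08 ± 0.25 (adjusted p = 0.787).

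A further 4 genes shared that course, though the list did not hold them. They encode the GDSL-type esterases AT5G37690 and AT2G23540, of a family whose members build or break down lipid polyesters, the class III peroxidase AT1G68850 and the hydroxyproline-rich glycoprotein AT5G09480. AT5G37690 had 13.1, 12.4 and 7.74 CPM at 0 h, and after CIM 1.19, 0.511 and 0.450 CPM at 27 °C, against 8.46, 8.07 and 15.1 CPM at 17 °C. After SIM it had 10.9, 10.6 and 10 CPM at 27 °C, against 27.9, 29.1 and 29.2 CPM at 17 °C. Its difference from 0 h at 27 °C was -0.26 ± 0.21 (adjusted p = 0.246, and 0.0431 without 0 h library 3). The other 12 of the 13 genes with at least 10 CPM at 0 h passed as lower there, where 39.9% of all genes did. The condition on SIM bounded the levels at 27 °C, and BGLU19 and AT3G21380, among the 12, rested on 0 h libraries 1 and 3. Nothing is read from that count. AT5G37690 rose at 17 °C relative to 0 h (1.22 ± 0.17, adjusted p = 1.62e-07). AT1G68850 had 12.3, 13.8 and 8.28 CPM at 0 h and, after SIM, 9.26, 7.00 and 6.90 CPM at 27 °C against 25.2, 23.6 and 20.8 CPM at 17 °C. It fell at 27 °C (-0.75 ± 0.23, adjusted p = 0.00422) and rose at 17 °C (0.86 ± 0.18, adjusted p = 0.000121), both relative to 0 h.

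AT2G23540 had 30.3, 31.1 and 19.8 CPM at 0 h and, after SIM, 10.6, 8.21 and 9.05 CPM at 27 °C against 24.5, 25.3 and 26.3 CPM at 17 °C. It fell at 27 °C relative to 0 h (-1.72 ± 0.34, adjusted p = 0.000611), and its difference at 17 °C was -0.25 ± 0.28 (adjusted p = 0.43). AT5G09480 had 21.03, 21.4 and 17.1 CPM at 0 h and, after SIM, 9.72, 6.28 and 10.7 CPM at 27 °C against 22.1, 25.3 and 26.3 CPM at 17 °C. It fell at 27 °C (-1.33 ± 0.25, adjusted p = 7.68e-05), and at 17 °C its difference from 0 h was 0.15 ± 0.20 (adjusted p = 0.512). AT5G44550, of the UPF0497 family that includes the Casparian strip membrane proteins, had 22.7, 21.4 and 17.9 CPM at 0 h and, after SIM, 4.86, 5.55 and 6.67 CPM at 27 °C against 17.3, 16.9 and 19.6 CPM at 17 °C. It fell at 27 °C relative to 0 h (-2.04 ± 0.30, adjusted p = 1.15e-05), while at 17 °C its difference was -0.36 ± 0.24 (adjusted p = 0.185, and 0.0274 without CIM library 3 at 17 °C in the fit). GPAT6, another acyltransferase of the family and known for the cutin of flowers, was looked at after its values were seen. It had 12.6, 10.3 and 8.54 CPM at 0 h and, after SIM, 5.09, 5.56 and 5.00 CPM at 27 °C against 20.0, 16.6 and 20.3 CPM at 17 °C, and relative to 0 h it fell at 27 °C (-1.18 ± 0.27, adjusted p = 0.00035) and rose at 17 °C (0.71 ± 0.21, adjusted p = 0.00401).

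The mean after SIM at 17 °C was above the mean after CIM at 17 °C for 9 of the 46 genes. The level after CIM at 17 °C chose the genes, so nothing is read from that count, which was 50.1% over all genes tested. These 9 were GPAT5, GPAT6, GPAT7, CYP86A1, AT5G37690, AT2G23540, AT1G68850, AT5G09480 and AT5G44550. GPAT5, GPAT7, AT5G37690, AT1G68850 and AT5G09480 met the 10 CPM condition only with library 3 of CIM at 17 °C, while CYP86A1, GPAT6, AT2G23540 and AT5G44550 met it without that library.

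**Figure D2:**
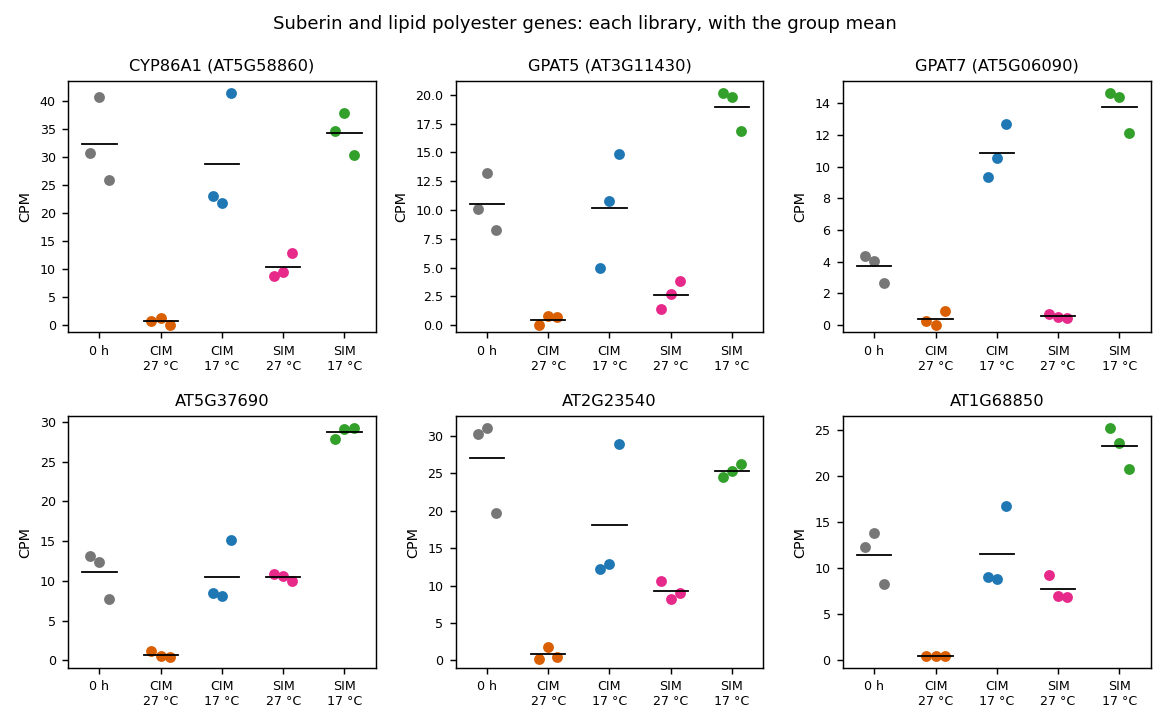
Level in CPM of 3 suberin enzymes, 2 GDSL-type esterases and 1 peroxidase in each library (points) with the mean of the 3 libraries (line), at 0 h and after CIM and SIM at each temperature. After CIM the 27 °C points lie near 0, and after SIM the 27 °C points lie below the 17 °C points in all 6 panels.

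Of the 15 suberin genes that did not meet the conditions, 13 could be tested. Relative to 0 h, 0 of them were higher and 8 lower after SIM at 27 °C, where 38.5% of the 20704 genes tested were higher and 39.9% lower, and 6 were higher and 3 lower after SIM at 17 °C, where 38.8% of all genes were higher and 37.8% lower. The 2 comparisons share the 0 h libraries. MYB39, a transcription factor that switches on suberin genes in the endodermis, had 0.546, 0.541 and 1.87 CPM at 0 h, 0 in every CIM library at 27 °C against 9.92, 8.80 and 9.26 CPM at 17 °C, and after SIM 0.463, 1.21 and 0.714 CPM at 27 °C against 6.97, 6.25 and 6.69 CPM at 17 °C. MYB39 missed the 10 CPM condition narrowly and was singled out after its values were seen, and it rose after SIM at 17 °C relative to 0 h (2.56 ± 0.38, adjusted p = 4.16e-07). Some of the 13 were low after CIM at 27 °C, such as FAR4 (mean 2.81 CPM, against 76.2 CPM at 17 °C) and ASFT (1.92 against 49.6 CPM). The 4 with the highest means after CIM at 17 °C stayed on at 27 °C. The fatty acid elongase KCS20 had 142, 155 and 146 CPM after CIM at 27 °C, against 174, 161 and 146 CPM at 17 °C, so these groups overlapped. KCS2, also an elongase, had 131, 127 and 138 CPM at 27 °C, against 143, 144 and 153 CPM at 17 °C. The alcohol-forming reductase FAR1 had 85.7, 90.2 and 89.7 CPM at 27 °C, against 111, 103 and 113 CPM at 17 °C, and the transporter ABCG2 had 62.1, 58.0 and 62.7 CPM, against 200, 196 and 220 CPM. All 13 were lower after CIM at 27 °C than at 17 °C by the test, where 21% of all genes were. This was not particular to suberin, as 11 of 11 xylem, 6 of 7 cold and 6 of 7 flavonoid genes tested were lower too. Of the phloem, photosynthesis and root hair genes tested, 3 of 6, 3 of 14 and 0 of 7 were. Among the 13, log2 fold changes ran from -0.15 for KCS20 to -4.80 for FAR4, leaving out MYB39. With 0 counts at 27 °C, the fitted -8.20 of MYB39 is not a measured size.

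The 4 highest levels after CIM at 17 °C belonged to the wall genes AT1G65570, AT5G51520, CSLB03 and AT2G43860, all silent in the explant, and the next to the lectin AT3G21380 and the factor NAC038, which were not. The first was AT1G65570 (chromosome 1, 24374098 to 24375846, minus strand), the root cap polygalacturonase RCPG, and EXPB2 (AT1G65680, chromosome 1, 24427266 to 24428399, plus strand), a beta-expansin that loosens walls, lay 51419 bases away with 11 genes between. Their promoters are printed to show these 2 neighbours side by side. Capitals mark CACGTG, which was in both and in no other of the 45 promoters read, a share of 4.44% against 6.49% of all promoters. They lie at chr1:24375896-24376145 on the minus strand (AT1G65570) and chr1:24427016-24427265 on the plus strand (EXPB2) of TAIR10.1.
AT1G65570: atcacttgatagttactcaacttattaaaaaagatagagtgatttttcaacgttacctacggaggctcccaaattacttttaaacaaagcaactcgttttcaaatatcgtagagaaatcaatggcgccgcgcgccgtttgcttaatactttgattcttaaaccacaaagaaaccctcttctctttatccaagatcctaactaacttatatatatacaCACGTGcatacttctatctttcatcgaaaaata
EXPB2: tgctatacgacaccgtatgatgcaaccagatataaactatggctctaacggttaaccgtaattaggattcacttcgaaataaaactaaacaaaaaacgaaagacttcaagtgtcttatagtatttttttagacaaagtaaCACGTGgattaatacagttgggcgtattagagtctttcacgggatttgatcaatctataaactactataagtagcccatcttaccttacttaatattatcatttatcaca

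AT1G65570 had 0 counts in all 3 libraries at 0 h. After CIM it had 0.716, 0.255 and 0.899 CPM at 27 °C, against 116, 111 and 132 CPM at 17 °C, a mean 192-fold lower at 27 °C. After SIM it had 0.926, 1.45 and 1.19 CPM at 27 °C, against 6.73, 5.71 and 5.20 CPM at 17 °C, so that it was detected in every library but those of 0 h. It rose relative to 0 h after SIM at 27 °C, at least 4.39-fold against a floor of 3 counts over the 0 h group (adjusted p = 0.000299), and at 17 °C, at least 21.8-fold (adjusted p = 5.15e-10). With 4, 6 and 5 reads in the SIM libraries at 27 °C and none at 0 h, the gene did not pass the filter on low counts when these 2 groups were fitted alone, so that call depends on the other groups in the fit.

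EXPB2 had 0 counts at 0 h and 1 count in each CIM library at 27 °C, against 35.6, 38.4 and 40.7 CPM after CIM at 17 °C. After SIM it had 0, 0.241 and 0.476 CPM at 27 °C, against 19.7, 18.2 and 16.1 CPM at 17 °C. It was the only gene of the 21 with at most 1 CPM at 0 h that held 10 CPM after SIM at 17 °C, at least 66.7-fold above 0 h (adjusted p = 2.61e-16). At 27 °C the adjusted p against 0 h was 0.0796, and 0.0408 without SIM library 1 at 27 °C.

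AT5G51520 (chromosome 5, 20925980 to 20926594, plus strand), with the domain of pectin methylesterase inhibitors, had 0 counts in all libraries at 0 h and in all libraries at 27 °C, on either medium. At 17 °C it had 67.4, 57.9 and 73.1 CPM after CIM and 1.92, 2.72 and 0.495 CPM after SIM. On CIM it was at least 276-fold lower at 27 °C, against a floor of 3 counts over that group. After SIM at 17 °C it was at least 6.24-fold above 0 h (adjusted p = 0.000995), a test it entered only because its level after CIM at 17 °C, which chose it, carried it past the filter on low counts.

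AT4G22640, of the lipid transfer and 2S albumin superfamily, had 0 counts at 0 h and after SIM at 27 °C, and 1 count in the CIM libraries at 27 °C. At 17 °C it had 32.1, 35.0 and 42.4 CPM after CIM and 2.88, 2.72 and 2.97 CPM after SIM, and after SIM it was at least 10.6-fold above 0 h (adjusted p = 7.64e-07). AT2G43860, with a pectin lyase-like fold, had 0 counts at 0 h and 0.716, 0.511 and 0.225 CPM after CIM at 27 °C, against 41.4, 42.3 and 48.0 CPM at 17 °C. After SIM it was back to 0 at 27 °C and to 1 count in the group at 17 °C, so its expression was seen on CIM at 17 °C and hardly elsewhere.

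The 2 cellulose synthase-like genes CSLB03 and CSLB02, 27173 bases apart on chromosome 2 with 7 genes between, had 0 counts at 0 h. CSLB03 had 0.239, 1.53 and 0 CPM after CIM at 27 °C, against 54.3, 56.5 and 78.7 CPM at 17 °C, and CSLB02 had 0.239, 0.766 and 0.450 CPM, against 27.1, 25.2 and 46.0 CPM. After SIM, CSLB03 had 0 counts at 27 °C, against 1.68, 0.272 and 1.24 CPM at 17 °C. CSLB02 had 0.463, 0 and 0 CPM at 27 °C, against 1.92, 2.99 and 0.495 CPM at 17 °C. CSLB02 was at least 6.55-fold above 0 h after SIM at 17 °C (adjusted p = 0.0154), and it too was tested only through its level after CIM at 17 °C. With 0 h library 2 as the only 0 h sample, its fitted log2 fold change was 5.86, against 5.83 with all 3, and the adjusted p was 0.171. For CSLB03 the adjusted p was 0.091, against 0.0109 with DESeq2 and 0.0067 without CIM library 3 at 17 °C in the fit. Per kilobase of exon, AT1G65570 (81.6 CPM/kb) and AT5G51520 (71.0 CPM/kb) stood above AT4G22640 (43.9), EXPB2 (34.9), AT2G43860 (30.4), CSLB03 (24.1) and CSLB02 (13.3) after CIM at 17 °C.

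**Figure D3:**
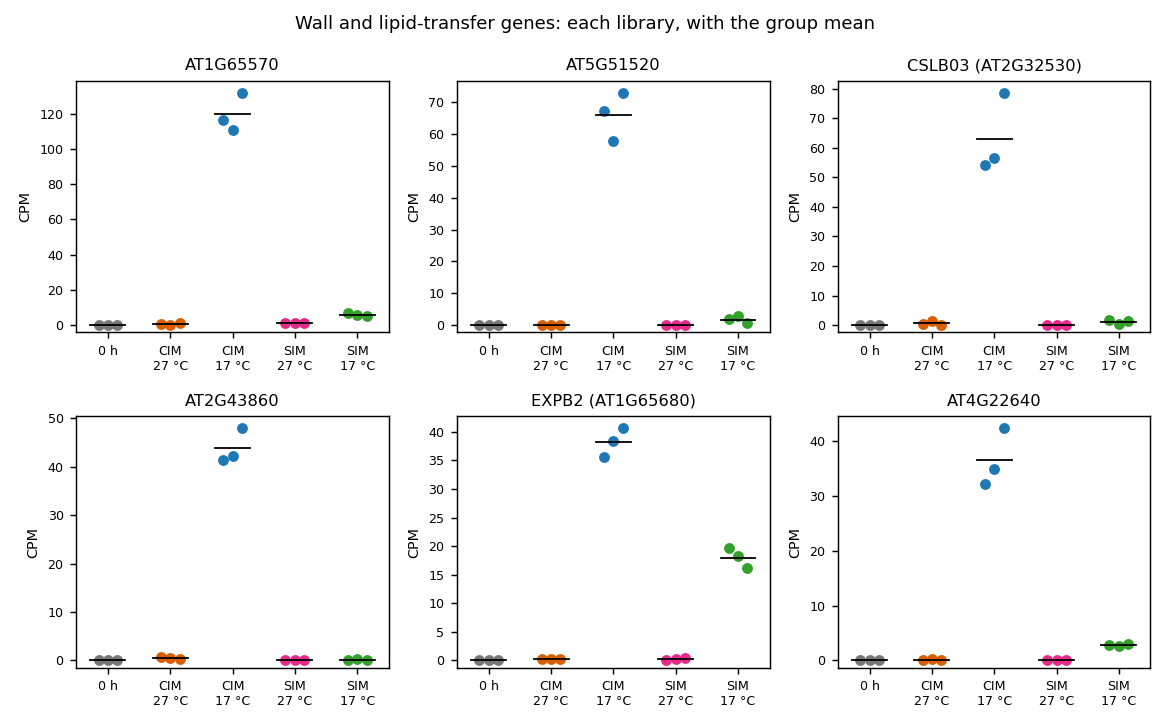
Level in CPM of 6 wall and lipid transfer genes in each library (points) with the mean of the 3 libraries (line). All 6 are at 0 at 0 h and reach 32 CPM or more in each CIM library at 17 °C, and of these EXPB2 alone stays above 10 CPM after SIM at 17 °C.

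Root cap genes beyond AT1G65570 were examined with a list of 8. Of the 6 tested that did not meet the conditions, 0 rose and 3 fell after SIM at 27 °C relative to 0 h (38.5% and 39.9% of all genes), and 4 rose and 0 fell after SIM at 17 °C (38.8% and 37.8%). Without AT1G65570, the summed level of the list was 81.4 to 92.6 CPM at 0 h, 113 to 121 CPM after CIM at 27 °C against 327 to 386 CPM at 17 °C, and 77.1 to 84.3 CPM after SIM at 27 °C against 133 to 155 CPM at 17 °C. BRN1, a NAC factor of root cap maturation on which RCPG expression is known to depend, had 0 counts at 0 h and 1.67, 1.53 and 1.57 CPM after CIM at 27 °C, against 72.4, 67.7 and 83.3 CPM at 17 °C. After SIM it had 0.463, 0.242 and 0 CPM at 27 °C, against 15.1, 11.96 and 9.41 CPM at 17 °C. The cellulase CEL5, expressed in the cap, stayed on in every group, with 63.7, 63.6 and 64.8 CPM after CIM at 27 °C, against 116, 120 and 126 CPM at 17 °C. BFN1, a nuclease of developmental cell death, had 22.9, 22.0 and 22.0 CPM, against 68.0, 66.5 and 80.4 CPM, and the aspartic protease PASPA3 had 19.1, 23.2 and 18.9 CPM, against 47.6, 47.2 and 58.2 CPM. BRN1, BRN2 and RCPG were the markers at 0 at 0 h.

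The other 14 genes with at most 1 CPM at 0 h ranged from 10.1 to 24.6 CPM on average after CIM at 17 °C. BGLU35, a root myrosinase also called TGG5, had 0 counts at 0 h and after SIM at 27 °C, and was at least 10.9-fold above 0 h after SIM at 17 °C, where it had 2.40, 5.16 and 1.49 CPM (adjusted p = 3.93e-05). It is 96.1% identical over 1742 bases to AT1G47600, which had 15 counts in all after CIM at 17 °C and 42 after SIM at 17 °C, so reads may have been split between them. SWEET7 (a sugar transporter), HVA22J (which overlaps AT2G36010 on the other strand by 31 bases), the dirigent-like AT1G22900, AT5G45630 and the acyltransferase AT1G24420 also passed as higher after SIM at 17 °C than at 0 h, with log2 fold changes from 1.75 for HVA22J to 4.54 for AT5G45630. Of these and BGLU35, AT1G24420 alone passed the filter on low counts without the CIM libraries at 17 °C. GLIP6, AT2G39490, FRO5, AT5G65980, AT1G23200, AT4G12500, AT2G46495 and the pseudogene AT1G23620 did not pass that test. GLIP6 and AT2G46495 passed as lower after SIM at 27 °C, where both had 0 counts, against 6 and 8 counts over the 0 h group. Neither passed the filter on low counts when these 2 groups were fitted alone. FRO5, of the ferric reductase family, is 93.2% identical over 1698 bases to AT5G23980, which had 75 counts in all after SIM at 27 °C and 136 at 17 °C.

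Of the 12 genes between 1 and 10 CPM at 0 h, 11 fell after SIM at 27 °C relative to 0 h (39.9% of all genes), and 6 fell and 3 rose after SIM at 17 °C (37.8% and 38.8%). The condition on SIM bounded the levels at 27 °C, and the shares are over genes of any level at 0 h. Nothing is therefore read from these counts. Among the 11, NAC038, ABCA8, AT3G63360 and MYB79 did not pass the filter on low counts when SIM at 27 °C and 0 h were fitted alone. NAC038, a NAC transcription factor, had 3.00, 3.24 and 2.14 CPM at 0 h, and after CIM 0, 0.255 and 0.675 CPM at 27 °C, against 35.9, 32.8 and 47.7 CPM at 17 °C, a mean 125-fold lower at 27 °C. After SIM it had 1.16, 1.69 and 0.714 CPM at 27 °C, against 6.25, 4.35 and 5.94 CPM at 17 °C. It fell at 27 °C (-1.40 ± 0.46, adjusted p = 0.00684) and rose at 17 °C (0.83 ± 0.33, adjusted p = 0.0236), both relative to 0 h. The fall depended on the other groups in the fit. The gain was not past the threshold without 0 h library 3 (adjusted p = 0.0967) or SIM library 1 at 17 °C (adjusted p = 0.0659).

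BOR4, which exports borate, had 9.01, 8.11 and 9.88 CPM at 0 h and, after CIM, 0.477, 1.02 and 0.675 CPM at 27 °C, against 31.2, 24.9 and 41.9 CPM at 17 °C. After SIM it had 0.232, 0.725 and 0.714 CPM at 27 °C, against 2.40, 3.26 and 1.24 CPM at 17 °C, and it fell at both temperatures relative to 0 h (log2 fold changes -4.13 ± 0.43, adjusted p = 3.52e-10, at 27 °C and -2.13 ± 0.32, adjusted p = 6.07e-07, at 17 °C). AT1G28650, a GDSL-type esterase, had 7.37, 4.87 and 6.94 CPM at 0 h and 0 counts after SIM at 27 °C, against 0.962, 1.36 and 0.743 CPM at 17 °C. It was at least 27.0-fold lower than at 0 h after SIM at 27 °C (adjusted p = 1.34e-09), and at 17 °C it fell by 2.78 ± 0.44 on the log2 scale (adjusted p = 1.46e-06). ABCA8, MGDC (a galactolipid synthase), AT1G62935 and AT1G22110 also fell at both temperatures. CYP708A1 fell at 27 °C and rose at 17 °C, MYB79 and the defensin-like AT3G63360 fell at 27 °C alone by the test, and CYP716A1 passed in neither comparison. The falls of MYB79 and AT3G63360, and those of ABCA8 at both temperatures, depended on the other groups in the fit. In RefSeq exons, CYP708A1 shares 445 identical bases with AT1G55930, which had 473 to 548 counts in each culture group. The spans of these genes in the deposited table do not overlap. How reads that map to several genes were treated is not given, so the values of CYP708A1 are uncertain.

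The 5 other genes with at least 10 CPM at 0 h passed as lower than 0 h after SIM at both temperatures. Over all genes, 39.9% did at 27 °C and 37.8% at 17 °C. For BGLU19 and AT3G21380 the calls rested on 0 h libraries 1 and 3, as given below. UMAMIT31, of an amino acid exporter family, had 51.6, 49.7 and 57.9 CPM at 0 h and, after CIM, 0.955, 0.766 and 0.899 CPM at 27 °C, against 7.29, 11.5 and 13.4 CPM at 17 °C. After SIM it had 4.63, 3.38 and 4.05 CPM at 27 °C, against 7.21, 2.99 and 3.71 CPM at 17 °C, where the groups overlapped. Relative to 0 h its log2 fold change was -3.90 ± 0.17 at 27 °C (adjusted p = 1.54e-19) and -3.64 ± 0.17 at 17 °C (adjusted p = 7.95e-19), so it fell at both.

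AT3G06390, a UPF0497 protein like AT5G44550, had 16.9, 18.4 and 14.1 CPM at 0 h and, after CIM, 0.477, 0.766 and 0.225 CPM at 27 °C, against 7.29, 6.85 and 22.4 CPM at 17 °C, the widest gap between library 3 and the others among the 46 genes. After SIM it had 1.16, 1.21 and 1.905 CPM at 27 °C, against 2.40, 2.17 and 1.24 CPM at 17 °C, and it fell by 3.69 ± 0.52 at 27 °C (adjusted p = 1.57e-05) and by 3.23 ± 0.50 at 17 °C (adjusted p = 4.05e-05) on the log2 scale relative to 0 h. Unlike AT5G44550, it was thus well below its 0 h level on SIM at 17 °C. AT5G67620 fell by 2.98 ± 0.26 at 27 °C and by 0.80 ± 0.19 at 17 °C on the log2 scale.

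BGLU19, a beta-glucosidase, and AT3G21380, a mannose-binding lectin, are near neighbours on chromosome 3, 531 bases apart with 1 gene between. They had 128, 1.08 and 89.2 CPM (BGLU19) and 59.8, 0 and 43.8 CPM (AT3G21380) in 0 h libraries 1, 2 and 3, high in the libraries in which the seed maturation list was high. After CIM at 27 °C, BGLU19 had 0.477, 1.02 and 0.675 CPM and AT3G21380 had 0.239, 1.79 and 0 CPM. After CIM at 17 °C, BGLU19 had 12.3, 9.78 and 21.2 CPM and AT3G21380 had 39.4, 28.1 and 59.9 CPM, while the seed list was at 0.487 to 1.46 CPM. Both fell after SIM at 27 °C (adjusted p = 0.00149 and 0.00285) and at 17 °C (adjusted p = 0.00214 and 0.0156) relative to 0 h, and no call held with 0 h library 2 alone, where the adjusted p ran from 0.149 to 0.915. AT3G21380 also lost its call at 17 °C with DESeq2 (adjusted p = 0.0524), in the fit of the 2 compared groups (0.115) and without 0 h library 1 (0.0737). In fits of the 2 compared groups, BGLU19 at both temperatures and AT3G21380 at 27 °C did not pass the filter on low counts. BGLU19 overlaps AT3G21360 on the other strand over 527 bases, and the sources used here do not say if the counting used strand.

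Over all 46 genes, 1 rose and 25 fell after SIM at 27 °C relative to 0 h, where 38.5% of the 20704 genes tested rose and 39.9% fell. After SIM at 17 °C, 18 rose and 11 fell, where 38.8% of all genes rose and 37.8% fell. The condition on SIM had removed 7 genes, 6 of them with a higher mean after SIM at 27 °C than at 0 h, so the scarcity of rises at 27 °C is in part set by the choice of genes. Medium, light, time and, between the cultures, temperature all differ from 0 h, and the 2 comparisons share the 0 h libraries. The median log2 fold change of the 46 genes was -1.56 at 27 °C and 0.77 at 17 °C, beside 0.00 and 0.03 over all genes tested, a description only, since the choice used the levels on SIM. With genes at 0 in a group set to their bound and those at 3 counts or fewer in both groups left out, it was -1.77 over 34 genes at 27 °C and 0.71 over 43 genes at 17 °C. At 17 °C, 11 of the 21 genes with at most 1 CPM at 0 h rose, and these had little room to fall. Of the 12 between, 3 rose and 6 fell, and 4 of the 13 with at least 10 CPM rose and 5 fell. All 46 genes passed the filter on low counts in the fit of all libraries, many of them only through the 17 °C libraries that chose them. When the SIM libraries at 27 °C and the 0 h libraries were fitted alone, 18 passed it, of which 0 rose and 17 fell, and with those at 17 °C 24 passed, of which 11 rose and 9 fell. Of the calls above, 1 rise and 8 falls at 27 °C and 7 rises and 2 falls at 17 °C were thus of genes outside these fits.

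Among the 32 genes that met the conditions without library 3 of CIM at 17 °C, 1 rose and 17 fell after SIM at 27 °C, and 12 rose and 8 fell after SIM at 17 °C. With 0 h library 2 as the only 0 h sample, 1 rose and 20 fell at 27 °C, and 13 rose and 7 fell at 17 °C. With libraries 1 and 3 of SIM at 17 °C as 1 sample, 19 rose and 11 fell at 17 °C. With the like pair of CIM at 27 °C as 1 sample, 20 rose and 11 fell. The level after SIM itself was lower in every 27 °C library than in every 17 °C library for 36 of the 46 genes, where 26.3% of all genes tested did so, and the third condition had set the direction of that difference. For 6 of the 46, every 27 °C library after SIM lay below and every 17 °C library above all 0 h libraries, where 1.44% of all genes tested did so, an order that the third condition favoured. The summed level of the 46 genes after SIM was 80.1, 73.9 and 84.0 CPM at 27 °C, against 323, 317 and 293 CPM at 17 °C, and at 0 h it was 479, 297 and 390 CPM.

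**Figure D4:**
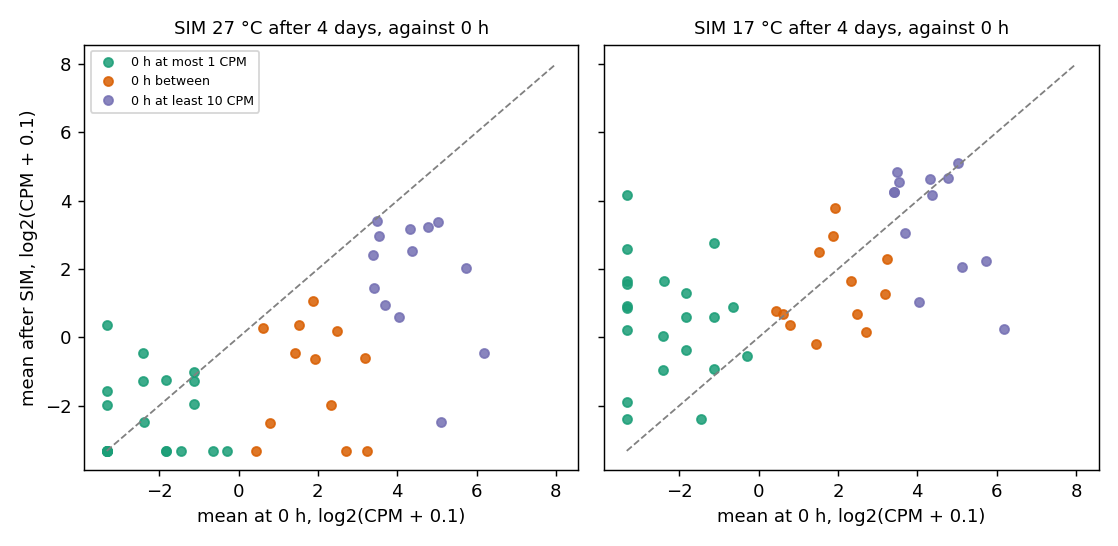
Mean level of each of the 46 genes after SIM at 27 °C (left) and at 17 °C (right) against its mean at 0 h, both as log2(CPM + 0.1), coloured by the level at 0 h, with the line of equal level dashed. At 27 °C most points lie on or below the line, and at 17 °C the 21 genes with at most 1 CPM at 0 h lie mostly above it, while those with at least 10 CPM lie on both sides.

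By the words of their annotation, 45 of the 46 genes were protein coding and 1 a pseudogene, and 4 carried words for pectin (8.7%, against 0.609% of all genes tested). Another 4 were acyltransferases (8.7%, against 0.531%), 3 carried the word GDSL (6.52%, against 0.261%) and 3 were cytochromes P450 (6.52%, against 0.768%). Words for expansin, extensin, cell wall or cellulose were carried by 3 (6.52%, against 0.483%), namely EXPB2 and the cellulose synthase-like CSLB03 and CSLB02. AT5G37690, annotated as an SGNH hydrolase-type esterase, was not counted under GDSL. Transcription factors numbered 2, NAC038 and MYB79 (4.35%, against 4.72%), and kinases or receptors 0 (0%, against 5.96%). The genes lay on chromosomes 1 to 5 in numbers of 14, 10, 6, 5 and 11. None was in the lists for the Casparian strip, xylem, cold response, flavonoids, seed maturation, root hairs, phloem or photosynthesis. The Casparian strip list of 11 genes, another endodermal list, summed to 110 to 114 CPM after CIM at 27 °C and 127 to 141 CPM at 17 °C, and the cold list of 11 genes to 85.7 to 88.6 CPM and 183 to 201 CPM. Most of the Casparian strip sum came from RBOHF (means 55.6 CPM at 27 °C and 82.5 CPM at 17 °C) and ESB1 (49.8 and 38.8 CPM). CASP1 to CASP5 and PER64 had means under 1 CPM in both CIM groups, against 13.0 (CASP4) to 56.7 CPM (CASP1) at 0 h. By the test, 3 of the 11 were lower after CIM at 27 °C than at 17 °C (21% of all genes), namely RBOHF, SGN3 and MYB36.

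ACGTG, searched on both strands, was in 18 of the 45 promoters of 250 bases that could be read (40%), against 22.9% of 27443 promoters of the same length in the annotation. CACGTG, which contains ACGTG, was in 2 (4.44%, against 6.49%), CCGAC in 4 (8.89%, against 11.97%), TTGAC in 23 (51.1%, against 44.9%), ACCAACC in 3 (6.67%, against 2.69%), ACCAAAC in 2 (4.44%, against 8.29%) and TATAAA in 31 (68.9%, against 47.3%). ACCTACC and ACCTAAC were in 0, against 1.16% and 2.46%. In the sequences printed above, GPAT5 and GPAT7 held ACGTG and CYP86A1 held none of the 9 motifs but TATAAA. A match describes letters in a window and shows no bound site. The median GC content of the members' promoters was 30.8%, against 31.2% of all.

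The excess in library 3 of CIM at 17 °C differed among the 46 genes. Its level was 1.31 times the mean of libraries 1 and 2 at the median of the 21 genes with at most 1 CPM at 0 h, 1.34 times for the 12 between and 1.88 times for the 13 with at least 10 CPM. It was highest for all 13 of the last kind. The ratio ran from 0.859 for MYB79 to 3.17 for AT3G06390. AT1G65570 (ratio 1.16), AT5G51520 (1.17), EXPB2 (1.10) and AT2G43860 (1.15) were nearly level across the 3 libraries.

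**Figure D5:**
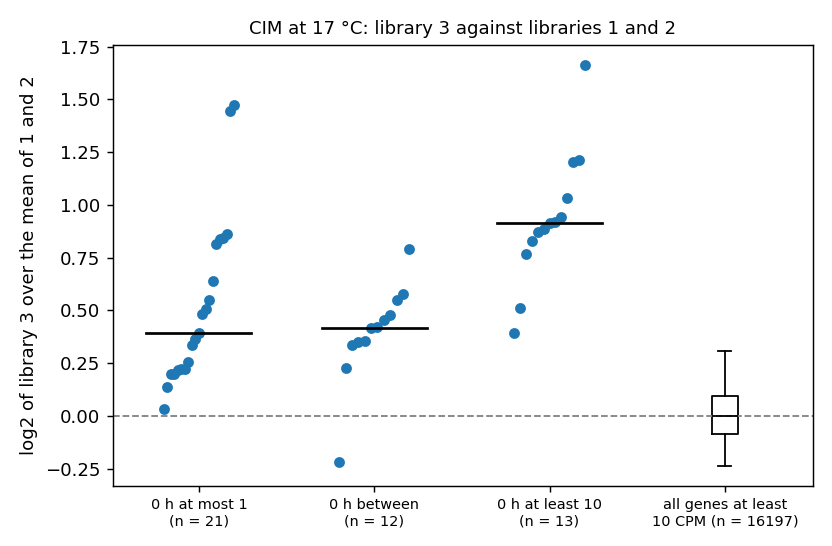
Ratio of library 3 to the mean of libraries 1 and 2 after CIM at 17 °C, on a log2 scale, for each of the 46 genes by level at 0 h (points, line at the median) and for all 16197 genes with at least 10 CPM there (box with median and quartiles, whiskers at percentiles 5 and 95). All but 1 of the points lie above 0, and those of the 13 genes with at least 10 CPM at 0 h lie highest at the median.

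At the edge of the conditions, the lowest means after CIM at 17 °C were 10.1 CPM for AT2G46495, 10.1 CPM for BGLU35 and 10.2 CPM for GPAT5, and the nearest genes left out were AT1G76230 (9.65 CPM), AT4G26880 (9.49 CPM) and the suberin transporter ABCG6 (9.47 CPM). The highest means after CIM at 27 °C were 0.984 CPM for AT5G09480, 0.948 CPM for AT1G22110 and 0.91 CPM for GPAT6, and the nearest outside were scpl6 (1.03 CPM), AT2G45220 (1.06 CPM) and GH9B15 (1.18 CPM). The condition on SIM removed AT1G30870, TLL1, SSL2, AT3G15830, ABCA3, AT4G02160 and AT5G18840. Of these, the peroxidase AT1G30870 had 57.4, 68.1 and 55.0 CPM after SIM at 27 °C, against 45.9, 50.3 and 33.2 CPM at 17 °C.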

How the data were processed

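Messenger RNA was measured in 15 libraries (5 groups of 3). The authors deposited raw counts of reads for each annotated gene, with no normalization for depth. FastQC 0.11.7, Bowtie2 2.3.4.3, SAMtools 1.9, bedtools 2.26.0 and the TAIR10 build are named, with no role or order, per the submitters' processing notes. Duplicate removal, strand use and the treatment of reads that map to several genes are not given in the sources used here. All count columns were matched to a sample by name, with 0 left over. Gene coordinates are those of the deposited table (TAIR10), and 32835 of the 33602 identifiers matched RefSeq (TAIR10.1), from which names, exon lengths and promoters were taken.

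CPM used the column total. Genes were filtered with filterByExpr (20704 left, common dispersion 9.77e-05), scaled by TMM and fitted over all 15 libraries with edgeR 4.0.16 (quasi-likelihood, robust) in R 4.3.3, with Benjamini-Hochberg adjustment over all genes and a threshold of 0.05. The tests compared SIM at each temperature with 0 h. The choice of genes did not use 0 h, but it used the means on SIM for the sign of their difference. Folds against a group with 0 counts use a floor of 3 counts over that group, which covers counting error only. The script was tested on simulated counts.

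Named genes are the 10 highest after CIM at 17 °C, those in a marker list, the 6 highest after SIM at 17 °C, the 6 highest at 0 h, the 5 largest changes each way between SIM at 17 °C and 0 h, the 3 genes on each side of a threshold, and up to 4 other genes per list with a member. The genes, lists, tests and alternatives were chosen with earlier results of these data known. Alternatives were DESeq2 1.42.0, its size factors, no filter, the compared groups alone, a replicate block, other thresholds and each library left out. Those added after seeing the data were 0 h library 2 alone, libraries 1 and 3 of SIM at 17 °C as 1 sample, and the test and the choice of genes without CIM library 3 at 17 °C. Library numbers did not pair samples: in 30 pairs with the same number, deviations from the group means had correlations between -0.153 and 0.108, and in 60 other pairs between -0.103 and 0.154.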

Additional observations from a re-analysis of the deposited data

Results flagged for a closer look

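For 6 of the 46 genes, every SIM library at 27 °C lay below and every SIM library at 17 °C lay above all 0 h libraries, where 1.44% of the 20704 genes tested did so. The condition on SIM favoured that order, so nothing is read from the count. Their log2 fold changes relative to 0 h were -2.855 at 27 °C and 1.73 at 17 °C for GPAT7, -2.188 and 0.6884 for GPAT5, -1.184 and 0.7055 for GPAT6, -1.399 and 0.8293 for NAC038, -1.041 and 0.9427 for CYP708A1, and -1.334 and 0.1501 for AT5G09480. The difference between the temperatures was not tested, because the choice of genes fixed its sign. For AT5G09480 the change at 17 °C did not pass the test (adjusted p = 0.512, edgeR).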

How the results depend on the processing

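Most values for the 23 named genes kept their direction and side of the threshold in 785 combinations of gene, comparison and setting, while 15 lost and 7 gained the call and 4 changed sign. The 4 were AT3G21380 with 0 h library 2 alone (log2 fold change 1.807 at 27 °C and 7.067 at 17 °C, past the threshold in neither) and CYP86A1 at 17 °C, at -0.07958 in the full fit and from -0.2113 to 0.1365 with a library left out (0.0278 without SIM library 3), not past in any setting. Fitting the 2 compared groups alone gave 0 genes higher at 27 °C and 11 higher at 17 °C, with fewer genes past the filter. With 0 h library 2 alone, 7 were lower at 17 °C. The number of genes meeting the conditions was 24 with at most 0.5 CPM and 72 with at most 2 CPM after CIM at 27 °C, 16 with at least 20 CPM and 105 with at least 5 CPM after CIM at 17 °C, and 17 with both limits applied to each library. With a library left out it was 32 to 50, and the counts of genes were 1 to 2 higher and 17 to 26 lower at 27 °C, and 12 to 21 higher and 8 to 12 lower at 17 °C, the low ends of 17, 12 and 8 with the genes chosen anew without CIM library 3 at 17 °C. A replicate block gave 1 higher and 25 lower at 27 °C, and 20 higher and 11 lower at 17 °C. At 3427707 to 4446863 counts per library, genes near 1 CPM rest on few reads, and their fold changes are imprecise.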
